A study of Homo sapiens with 9 samples.

Results

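The change between 24 and 48 h was measured in the human neuroblastoma line SK-N-AS as the 3 arrays at 48 h against the 3 arrays at 24 h. These 6 of the 9 arrays of the study were chosen by the hour in their labels, and each 48 h array was set against the 24 h array of its own series. The 3 series are cells labelled with RE-EX1, a construct for full-length NRSF, cells labelled with HZ4, a construct for a truncated NRSF, and untreated cells, each with 1 array at 0, 24 and 48 h. NRSF, also called REST, is a repressor of neuronal genes. Cells of every series grew in serum-containing medium, and total RNA was hybridised as biotin-labelled cRNA to Affymetrix arrays. The 3 series served as the replicates of the time change (n = 3 paired differences). The labels do not say whether arrays came from separate cultures, so the p-values cover no more than the spread of these arrays, which may be technical. The series' text speaks of triplicates and batches, but the labels carry no batch. Hours after treatment and hours in culture cannot be told apart.

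Cells that receive a fresh growth or stress signal transcribe immediate early genes first, such as FOS, JUN and EGR1, without needing new protein. Many of the products, among them dual-specificity phosphatases, Sprouty proteins and ZFP36, then switch off the signal or break down the messages, so that such responses are usually short. Later waves bring secreted proteins, enzymes and transporters. SK-N-AS is known as a neuroblastoma line with mesenchymal features.

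Signals below are the deposited linear intensities of 1 probe set per gene, always in the order full-length NRSF, truncated NRSF and untreated. Changes are log2 differences with their standard error from a limma fit with series as a block. A gene is said to have risen or fallen from 24 to 48 h when its Benjamini-Hochberg adjusted p over all 13804 genes tested was under 0.05. Median signals of the 9 arrays ran from 30.9 to 42.7. The highest was that of the truncated NRSF 24 h array, which stood apart: the dimmest 20% of genes lay 0.52 above the mean of the arrays there (log2). For ACTB, the 3' probe set over the 5' one, a sign of RNA quality, ran from 2.25 to 4.19. All 9 mesenchymal markers checked passed the filter on dim genes, with VIM, the vimentin filament gene, at 9354 to 14403 on the 9 arrays and PRRX1, a mesenchymal homeobox gene, at 1811 to 5612. So did 6 of 8 sympathoadrenal markers, with GATA3 at 1346 to 1912, RET at 161 to 1162 and DDC at 173 to 667, while TH, which makes dopamine precursors, stayed between 2.79 and 43.4. HAND2 ran from 14.6 to 89.8 and ALK from 3.87 to 78.0, and DBH did not pass. Members of both lists thus passed, but so did some markers of other cell types, given next. Among epithelial markers 2 of 6 passed, KRT18 at 2382 to 6076 and KRT8 at 81.9 to 189, and EPCAM reached at most 21.1. Of blood markers 3 of 5 passed, with PTPRC at 57.8 to 175, and SPI1 reached at most 16.5. Of Schwann and melanocyte markers 2 of 4 passed, with MITF at 86.1 to 250.5, and S100B reached at most 33.7. Of endothelial markers 1 of 5 passed, PECAM1 at 101 to 185, and CDH5 reached at most 23.6.

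The probe set of REST, the gene that the constructs carry, gave 171, 162 and 177 at 0 h, 268, 323 and 445 at 24 h and 274, 342 and 260.3 at 48 h. At 24 h both construct arrays lay below the untreated array, so the probe set did not set the construct series apart, and series are named here as their labels name them. The sources used here do not say whether the constructs hold the sequence this probe set reads. From 24 to 48 h its change was -0.22 ± 0.22 (adjusted p = 0.643) and the groups overlapped. Without the untreated series the change turned to 0.054.

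From 24 to 48 h, 237 genes rose (1.72% of 13804) and 246 fell (1.78%), 3.5% together, and 2469 had an unadjusted p under 0.05. All 48 h arrays lay above all 24 h arrays for 1430 genes (10.4%) and below them for 1455 (10.5%). All 3 series differed in the same direction for 2775 genes higher at 48 h (20.1%) and 2704 lower (19.6%). Within single series, 2-fold differences were more common. In the full-length NRSF series 6.95% of genes were 2-fold higher and 8.8% lower, in the truncated NRSF series 8.29% and 11.2%, and in the untreated series 7.9% and 7.85%. These have 1 array on each side and no replicate check. The split in the truncated NRSF series turned with the scaling, from 1145 higher and 1549 lower as deposited to 1524 and 1220 after quantile normalization and 1352 and 1212 after cyclic loess. Only 61 genes were 2-fold higher, and 121 were 2-fold lower, in 3 of 3 series (1.32% together). The counts rest on the variance model: with no mean-variance trend, or with no filter on dim genes, limma called 0 genes (1990 and 2743 had an unadjusted p under 0.05). Without the truncated NRSF 24 h array, 80 genes rose and 121 fell. The call counts without a whole series ran from 88, without the full-length NRSF series, to 197, without the truncated NRSF series. The fit without the full-length NRSF series had 10.6 total degrees of freedom. Those without the truncated NRSF and the untreated series had 16.4 and 17.6. A call that ended without the full-length NRSF series is therefore no sign by itself that the change rested on that series. Testing all 54613 non-control probe sets, each on its own, also gave 0 calls. Of 84 named genes with a call, 28 kept it under each of the other 12 settings laid down for the comparison, leaving out the settings that gave 0 calls: ARRDC3, ARRDC4, ATP1B1, B3GNT5, CITED1, CRH, CXCL8, DIO2, DUSP5, EGR1, FOS, GADD45A, HPGD, HTR2B, HTRA1, JUN, LIF, LIPG, MT1E, MT1H, PRRX1, PRSS35, PTCHD1, SLC5A3, SPRY4, TNFAIP3, TXNIP and ZBED10P.

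The direction of change was also read in arrays that a fit had not used. Without the full-length NRSF series 88 genes were called, and 94.3% of them changed in the same direction in that series, against 60.4% of all genes. The same share was 96.4% of 197 genes in the truncated NRSF series (63.1% of all genes). In the untreated series it was 94.7% of 188 genes (62% of all genes). Pearson's r of the 48 h minus 24 h difference over the 13804 genes was 0.118 to 0.154 between pairs of series, a description across genes that are not independent.

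Called genes were sorted by where they had stood at 24 h against 0 h, with 0.5 on the log2 scale as the limit. Of the 246 genes that fell, 196 had stood above 0 h at 24 h by more than 0.5, and these are the fading genes. They stood at a median of 1.16 above 0 h at 24 h and 0.18 above it at 48 h. A further 47 fell from a level near that of 0 h, and 3 went on falling. Of the 237 genes that rose, 130 had been below 0 h by more than 0.5 at 24 h, and these are the recovering genes, with medians of -0.86 at 24 h and 0.02 at 48 h. Another 105 rose from near the 0 h level, and DIO2 and NPY went on rising. The 24 h arrays enter both differences with opposite sign, which by itself favours fading and recovery, so these counts are a description.

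The series left out of a fit give the same reading free of that sharing of arrays. A shift common to the 24 h arrays of all series would still enter both differences, and was not tested. Of 107 genes called lower without the untreated series, 88 (82.2%) stood more than 0.5 above 0 h at 24 h in the untreated arrays themselves, against 20.6% of all genes. The corresponding shares were 95.9% of 49 genes in the full-length NRSF series (22% of all genes) and 72.5% of 131 genes in the truncated NRSF series (29% of all genes). For genes called higher, 48.1% of 81 stood more than 0.5 below 0 h at 24 h in the untreated arrays, against 24.3% of all genes. That share was 48.7% of 39 genes in the full-length NRSF series (23.9% of all genes) and 63.6% of 66 genes in the truncated NRSF series (26.2% of all genes).

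**Figure D1:**
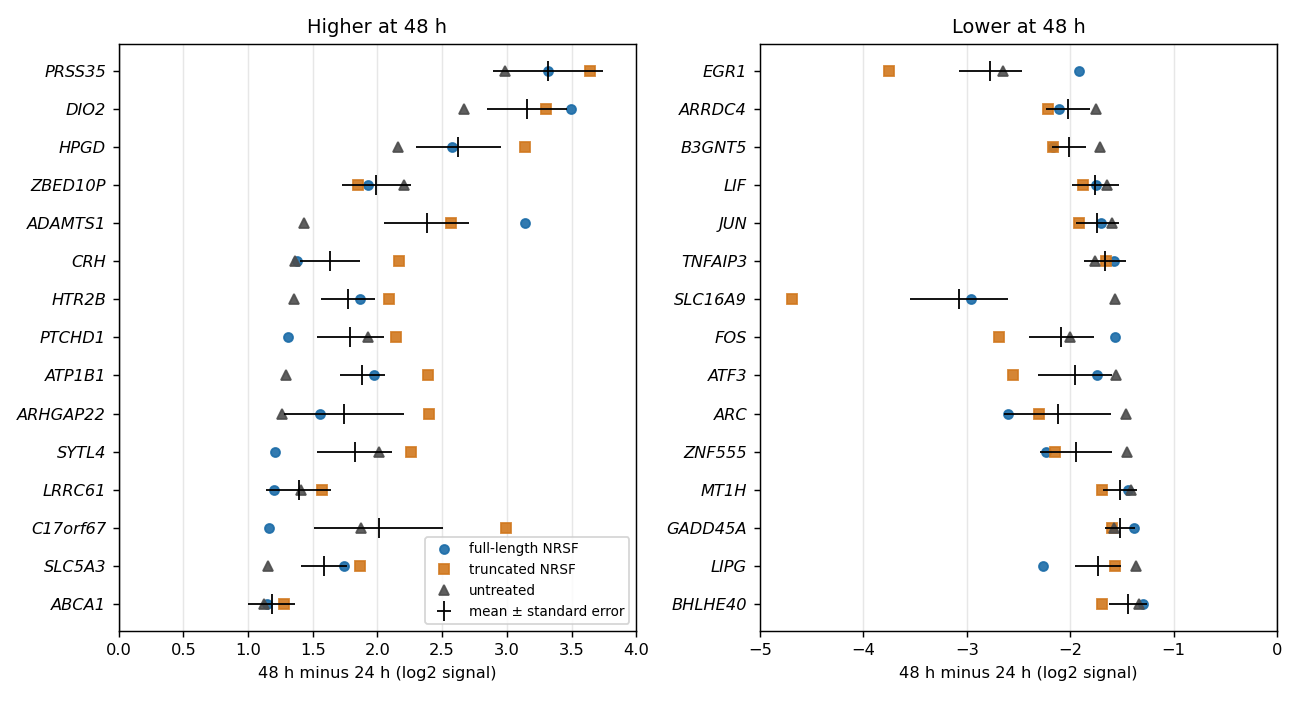
The 48 h minus 24 h difference of log2 signal for the 15 genes that rose (left) and the 15 that fell (right) with the largest smallest change over the 3 series; symbols are single series, and the bar is the mean with its standard error from the limma fit. Every symbol lies on the same side of 0 for its gene, and the series differ in size, as for EGR1, whose fall ran from 1.91 to 3.75.

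Immediate early genes were mostly lower at 48 h. Of 31 tested members, 12 fell and none rose, and 28 had a negative difference, 25 of them in 3 of 3 series. Over all 13804 genes tested, 1.78% fell and 1.72% rose, 6818 had a negative difference, and 19.6% were lower in 3 of 3 series. The counts of every list below stand against these shares. The median difference of the list was -0.78, against 0.01 over all genes tested. EGR1, a zinc finger factor induced by growth signals (chr5:138465479-138469303 in GRCh38.p14), gave 3730, 5038 and 2241 at 0 h, 10946, 20656 and 19579.9 at 24 h and 2908, 1534 and 3113 at 48 h. The 24 h arrays were high and did not overlap the 48 h arrays, and the full-length NRSF array was the lowest of the 24 h arrays. EGR1 fell by 2.77 ± 0.30 (adjusted p = 0.000106).

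FOS and JUN, whose products pair as AP-1, fell as well. FOS gave 315, 426 and 324 at 24 h and 106, 66.0 and 80.9 at 48 h and fell by 2.09 ± 0.31 (adjusted p = 0.00118). JUN, read by a probe set marked for possible cross-hybridization and therefore uncertain, gave 2571, 2695 and 2707 at 24 h and 787, 713 and 896 at 48 h and fell by 1.74 ± 0.21 (adjusted p = 0.000191). In both genes every 24 h array lay well above every 48 h array. Their relatives JUNB, JUND and FOSL2 were not called, with differences of -0.66, -0.40 and -0.37 (adjusted p = 0.15, 0.167 and 0.242). ATF3, a stress-induced partner of JUN, gave 116, 121 and 33.6 at 0 h, 723, 877 and 805 at 24 h and 216, 149 and 273 at 48 h. It fell by 1.95 ± 0.36 (adjusted p = 0.00612) but stayed 1.41 above 0 h on average. That excess was 0.89, 0.31 and 3.02 in the 3 series, largest in the untreated series, whose 0 h array was the lowest. FOSL1, a FOS relative typical of mesenchymal cells, lay at 605 to 752 at 24 h and at 211 to 406 at 48 h and fell by 1.32 ± 0.20 (adjusted p = 0.00109). BHLHE40, a repressor linked to the circadian clock, fell by 1.44 ± 0.18 (adjusted p = 0.000252). The calls of ATF3 and FOSL1 ended without the full-length NRSF series (adjusted p = 0.0972 and 0.0666). With probe sets averaged, ATF3 was at -1.19 (adjusted p = 0.148) and BHLHE40 at -1.62 (adjusted p = 0.075).

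Other called members of the list, chosen for naming after their values were seen, included Kruppel-like factors. KLF6 lay at 3346 to 3462 at 24 h and at 1241 to 1467 at 48 h and fell by 1.35. KLF10 lay at 4911 to 5093 at 24 h and at 1792 to 2053 at 48 h and fell by 1.35, and KLF4 lay at 1498 to 1717 at 24 h and at 626 to 658 at 48 h and fell by 1.31. The 24 h and 48 h ranges did not overlap in any of these, and KLF4 at 48 h was still above its 0 h range of 177 to 271. ZFP36, which binds and destabilises cytokine messages, fell by 1.31. TRIB1, a pseudokinase, fell by 0.81, and IER2, an immediate early factor, fell by 0.72.

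Feedback inhibitors of ERK signalling held 4 genes that fell among 18 tested, and none that rose, with a median of -0.37. DUSP5, a nuclear phosphatase that acts on ERK, gave 215, 208 and 220.1 at 0 h, 1257, 1374 and 966 at 24 h and 428, 412 and 469 at 48 h. All 48 h arrays lay between their 0 h and 24 h levels, and DUSP5 fell by 1.44 ± 0.17 (adjusted p = 0.000186). SPRY4, a Sprouty inhibitor of receptor tyrosine kinase signalling, gave 904, 873 and 882 at 24 h and 484, 428 and 440.1 at 48 h. The 3 arrays agreed closely at each hour, and SPRY4 fell by 0.98 ± 0.15 (adjusted p = 0.00145) to -0.01 against 0 h. SPRY2, its relative, lay at 1514 to 2459 at 24 h and at 832 to 1247 at 48 h and fell by 1.06 ± 0.18 (adjusted p = 0.00304), a call that ended without the full-length NRSF series (-0.91, adjusted p = 0.109). DUSP10, named after its value was seen, fell by 0.62. DUSP1, the phosphatase of the immediate early list, did not pass: its difference was -0.66 (adjusted p = 0.065), with 1645, 2270.2 and 2168 at 24 h and 1551, 1308 and 1006 at 48 h. The full-length NRSF array hardly differed there (-0.09), whereas the untreated array differed by -1.11.

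**Figure D2:**
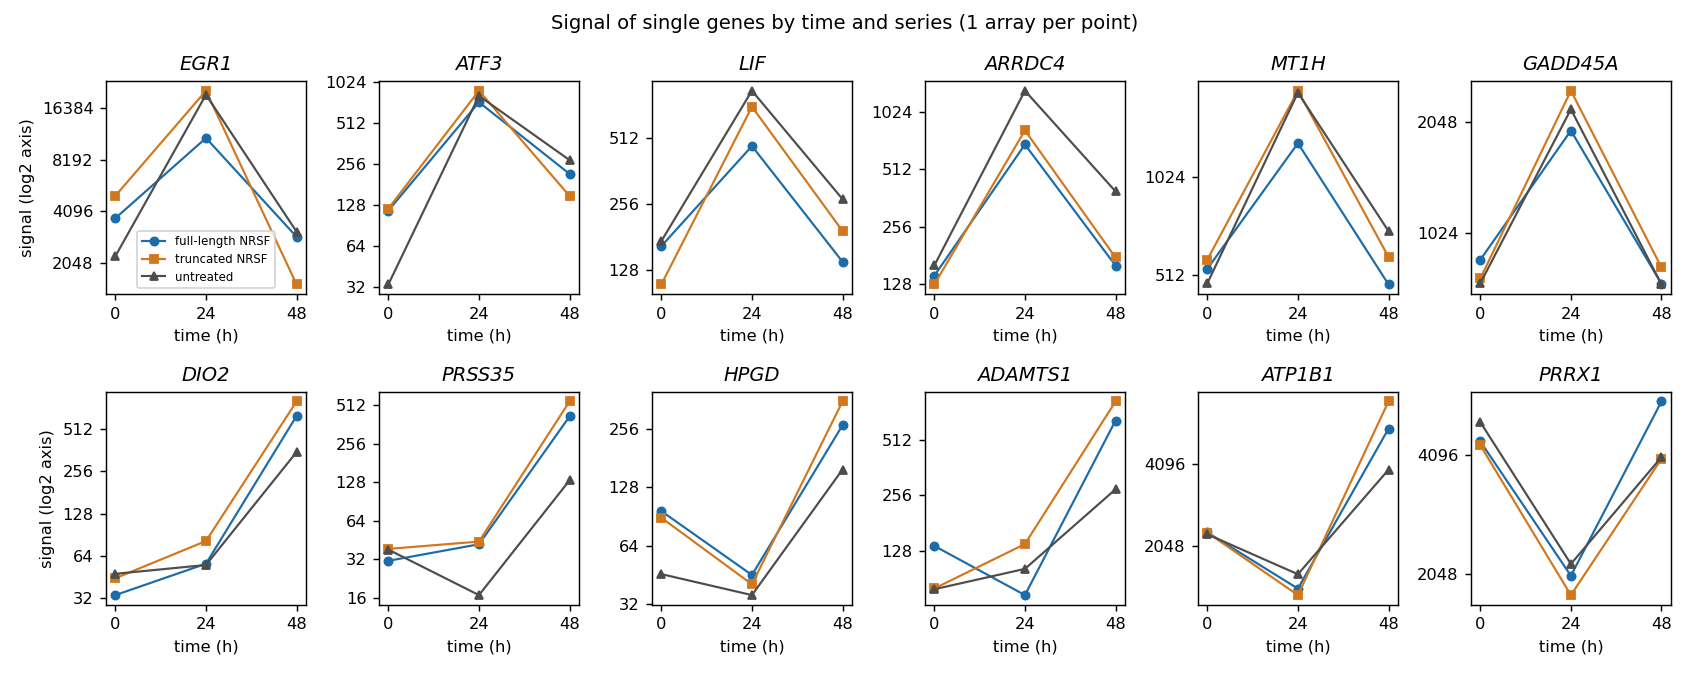
Signal on a log2 axis at 0, 24 and 48 h for 12 genes, 1 array per point and 1 line per series. The 6 genes in the upper row peaked at 24 h in every series, and the 6 in the lower row were highest at 48 h or, for PRRX1, lowest at 24 h.

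Among NF-kB and cytokine genes, 5 of 29 fell and 2 rose, with a median of -0.40. LIF, a cytokine of the IL6 family, gave 164, 110 and 173 at 0 h, 470.1, 710.1 and 840.2 at 24 h and 139.5, 193 and 269 at 48 h, and fell by 1.76 ± 0.23 (adjusted p = 0.000328). The untreated array was highest at 24 and 48 h, and every 24 h array lay above every 48 h array, while the 48 h and 0 h arrays overlapped. TNFAIP3, a ubiquitin-editing inhibitor of NF-kB, gave 676, 616 and 695 at 24 h and 226, 196 and 206 at 48 h. Its 48 h arrays lay within the 0 h range of 176 to 311, and it fell by 1.66 ± 0.21 (adjusted p = 0.000252). CXCL8, the neutrophil chemokine interleukin 8, gave 326, 174 and 318 at 0 h, 3045, 3771 and 5031 at 24 h and 1142, 1339 and 2176 at 48 h on an uncertain probe set. It fell by 1.37 ± 0.20 (adjusted p = 0.000792) and was still 2.51 above 0 h. Among members named after their values were seen, the NF-kB subunits REL and RELB fell by 1.32 and 1.18. CCL2, a monocyte chemokine, rose by 0.87, with signals of 2298 to 4186 at 24 h and 4642 to 5940.4 at 48 h, and VCAM1, an adhesion molecule, rose by 0.80, with signals of 151 to 182 at 24 h and 288 to 299 at 48 h. At 24 h they had stood at -0.98 and -1.93 against 0 h.

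Not every early response faded, and some members named after their values were seen show this. IL24, an IL10 family cytokine, gave 119, 113 and 87.2 at 0 h, 1902, 2373 and 1927 at 24 h and 2512, 2989 and 2877 at 48 h. Its 48 h arrays lay above its 24 h arrays, but the difference of 0.44 did not pass (95% interval 0.11 to 0.76, adjusted p = 0.138). HMOX1, which breaks down heme, gave 367, 529 and 416 at 24 h and 499, 581 and 631 at 48 h, against 51.9 to 66.4 at 0 h. Its difference was 0.39 (95% interval -0.05 to 0.83, adjusted p = 0.339), and the hours overlapped. IL11, another IL6 family cytokine, had a difference of -0.24 (95% interval -0.63 to 0.15, adjusted p = 0.532) after 2.50 at 24 h against 0 h. For IL24 and IL11 the intervals leave out a fall of the size seen for LIF, whose difference was -1.76. LIF is named for its large fall, and the difference between genes was not tested. Other genes looked up with these were not called either. INHBA differed by -0.73 (95% interval -1.325 to -0.14, adjusted p = 0.175) and SLC7A11 by -0.50 (-0.92 to -0.09, adjusted p = 0.179). NR4A3 differed by -0.72 (-1.84 to 0.39, adjusted p = 0.513). CXCR4, whose earlier change was not called, differed by 0.49 (-0.69 to 1.67, adjusted p = 0.704).

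Glucose-sensing arrestins and growth arrest genes had 4 of 18 members that fell and none that rose, with a median of -0.48. ARRDC4, an alpha-arrestin of the TXNIP family, gave 142, 128 and 160.5 at 0 h, 692, 820.1 and 1325 at 24 h and 160.3, 177 and 393 at 48 h. The untreated series was highest at each hour, and in every series the 24 h array was the highest. ARRDC4 fell by 2.03 ± 0.21 (adjusted p = 9.34e-05). TXNIP, a thioredoxin-binding arrestin that limits glucose uptake, gave 5744, 5533 and 4086 at 24 h and 1819, 1527 and 1947 at 48 h and fell by 1.53 ± 0.17 (adjusted p = 0.00014). ARRDC3, which promotes receptor turnover, gave 1248, 1404 and 1747 at 24 h and 502, 573 and 599 at 48 h and fell by 1.38 ± 0.16 (adjusted p = 0.000172). Neither gene's 24 h arrays overlapped its 48 h arrays. FOXO3, a forkhead factor of growth arrest named after its value was seen, lay at 1088 to 1113 at 24 h and at 486 to 580.1 at 48 h and fell by 1.07.

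Of 23 p53 target genes, 5 fell and none rose, with a median of -0.53. GADD45A, a stress sensor of growth arrest, gave 867, 772 and 749 at 0 h, 1946, 2498 and 2223 at 24 h and 746, 827 and 744 at 48 h. At 48 h the truncated NRSF array lay within the 0 h range and the other two just below it. It fell by 1.52 ± 0.14 (adjusted p = 4.04e-05). CDKN1A, the cell cycle inhibitor p21, lay at 708 to 939 at 24 h and at 222 to 347 at 48 h and fell by 1.52 ± 0.22 (adjusted p = 0.000948). GDF15, a stress cytokine read by an uncertain probe set, fell by 1.25 ± 0.22 (adjusted p = 0.00396). The calls of CDKN1A and GDF15 ended without the full-length NRSF series (-1.50 and -1.16, adjusted p = 0.065 and 0.106). GDF15 was at -0.35 when probe sets were averaged (adjusted p = 0.706). PMAIP1 and TNFRSF10B, which promote apoptosis and were named after their values were seen, fell by 1.09 and 0.63.

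Metallothioneins, small proteins that bind zinc and copper, had 5 called genes among 8 tested members of the list, all lower at 48 h, with a list median of -0.75. MT1H gave 535, 571 and 483 at 0 h, 1302, 1888 and 1863 at 24 h and 479, 582 and 699 at 48 h and fell by 1.52 ± 0.16 (adjusted p = 0.000101). MT1G gave 884, 1302 and 1376 at 24 h and 263, 411 and 728 at 48 h and fell by 1.44 ± 0.20 (adjusted p = 0.000782). MT1E gave 1853, 1577 and 1694 at 24 h and 526, 627 and 916 at 48 h and fell by 1.35 ± 0.17 (adjusted p = 0.000293). In each gene the 24 h arrays stood above the 48 h arrays, with the untreated array the highest at 48 h. All 5 called members sit on probe sets marked for cross-hybridization and their sequences are near-identical, so that the family, not its single genes, is what these values describe. With the dim members kept in the list its median was -0.40, and the call of MT1G ended when probe sets were averaged (-1.15, adjusted p = 0.0772).

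In the integrated stress response, the programme that ATF4 drives, 5 of 31 members fell and 1 rose, with a median of -0.31. DDIT4, an inhibitor of mTORC1, lay at 1067 to 1332 at 24 h and at 460 to 703 at 48 h and fell by 1.12 ± 0.16 (adjusted p = 0.000772). DDIT3, the factor CHOP, gave 196, 221 and 194 at 0 h, 663, 879 and 840.1 at 24 h and 425, 407 and 482 at 48 h. All 48 h arrays lay between their 0 h and 24 h levels, and DDIT3 fell by 0.85 ± 0.17 (adjusted p = 0.0108). PSAT1, an enzyme of serine synthesis, fell by 0.81 ± 0.17 (adjusted p = 0.0127). Without the full-length NRSF series the calls of DDIT4, DDIT3 and PSAT1 ended (adjusted p = 0.0598, 0.0798 and 0.0841), as did those of DDIT3 and PSAT1 without either other series and without the truncated NRSF 24 h array. Among members named after their values were seen, PPP1R15A, which ends the response, fell by 0.74, and ASNS, asparagine synthetase, fell by 0.64. SLC38A2, an amino acid transporter, rose by 0.79 on an uncertain probe set.

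Of 26 type I interferon response genes 3 fell and none rose, with a median of -0.02. That median was -0.21 without the truncated NRSF 24 h array, ran from -0.11 to 0.036 without 1 series, and was 0.027 after quantile normalization. IFIT2, an antiviral RNA-binding protein, gave 238, 315 and 543 at 24 h and 135, 96.9 and 96.7 at 48 h and fell by 1.67 ± 0.31 (adjusted p = 0.00679). IFIT3, its partner, lay at 694 to 796 at 24 h and at 349 to 461 at 48 h and fell by 0.88 ± 0.16 (adjusted p = 0.00629). RSAD2, the antiviral enzyme viperin, gave 157, 341 and 205 at 24 h and 74.5, 123 and 34.8 at 48 h and fell by 1.70 ± 0.40 (adjusted p = 0.0263). The 24 h and 48 h arrays did not overlap in these genes, and IFIT2 at 24 h was highest in the untreated array. None of these calls held without the untreated series (adjusted p = 0.116, 0.0871 and 0.158 for IFIT2, IFIT3 and RSAD2), and RSAD2 lost its call without any 1 series.

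**Figure D3:**
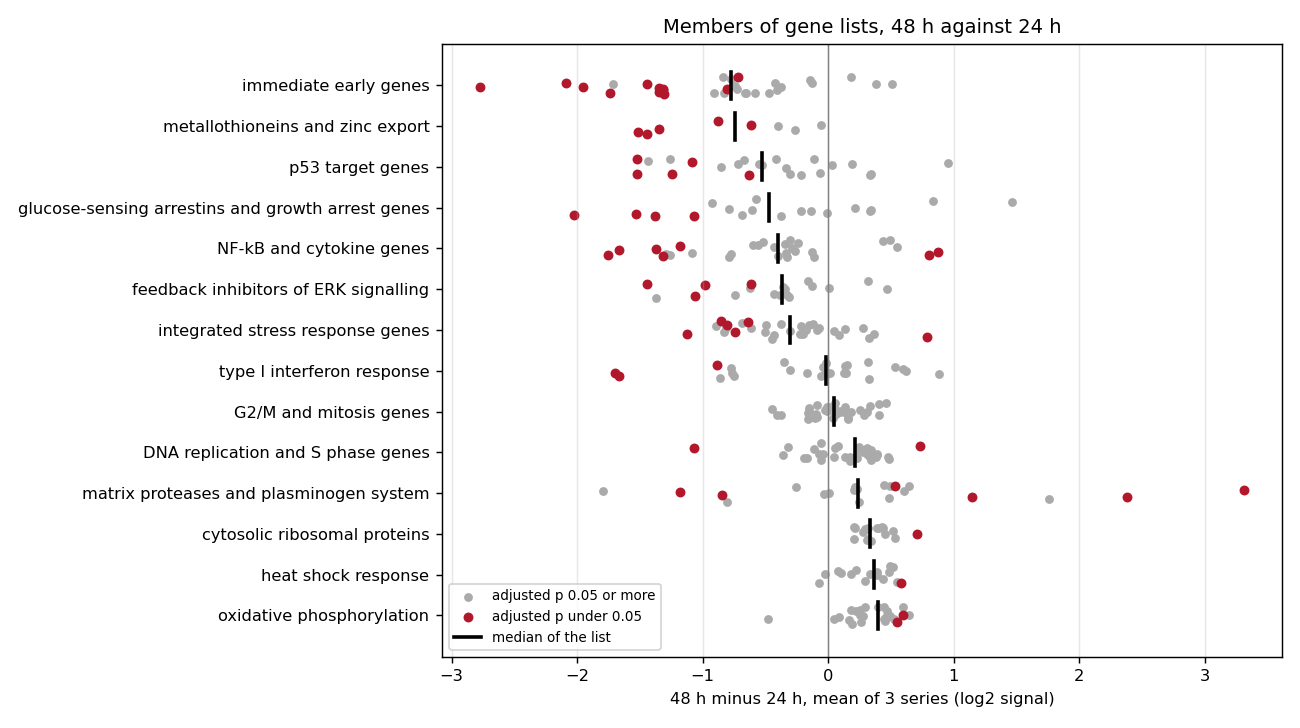
The 48 h minus 24 h difference (mean of 3 series, log2 signal) of every tested member of 14 of the 29 gene lists, with called members in red and the list's median as a bar. Immediate early genes sit lowest with a median of -0.78, and mitosis genes centre near 0 with no called member.

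Further fading genes lie outside these lists. They were named for a large smallest change over the series, so their size is not compared with that of list members. B3GNT5, a glycosyltransferase of glycolipid synthesis, gave 435, 453 and 411 at 0 h, 1019.9, 1019 and 956 at 24 h and 228, 227 and 292 at 48 h. The arrays of one hour differed little, the 48 h arrays lay below both earlier hours, and B3GNT5 fell by 2.01 ± 0.17 (adjusted p = 1.68e-05), the smallest adjusted p of the comparison. LIPG, a secreted lipase, gave 411, 369.6 and 464 at 24 h and 85.4, 125 and 180.1 at 48 h and fell by 1.73 ± 0.22 (adjusted p = 0.000316). SLC16A9, a carboxylate transporter, gave 211, 213 and 156 at 24 h and 27.1, 7.35 and 52.3 at 48 h and fell by 3.08 ± 0.48 (adjusted p = 0.0015). Its truncated NRSF array at 48 h was below the floor of 8.27, so its fall there depends on that floor. ARC, a synaptic immediate early gene, fell by 2.12 ± 0.52 (adjusted p = 0.0306), and ZNF555, a zinc finger gene, fell by 1.95 ± 0.35 (adjusted p = 0.00478). Without the full-length NRSF series the calls of SLC16A9, ARC and ZNF555 ended (adjusted p = 0.0705, 0.151 and 0.0981), and ARC lost its call under 7 of those 12 settings. ZNF555 was at -0.70 when probe sets were averaged (adjusted p = 0.432).

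Among the genes that rose, DIO2 and PRSS35 changed most. DIO2, the deiodinase that turns thyroxine into active thyroid hormone (chr14:80197526-80231057 in GRCh38.p14), gave 33.6, 44.3 and 47.7 at 0 h, 56.2, 81.6 and 55.1 at 24 h and 634.9, 806.4 and 351.3 at 48 h. Every 48 h array stood several times above every earlier array, with the untreated array the lowest of the 48 h arrays. DIO2 rose by 3.16 ± 0.31 (adjusted p = 5.74e-05) after a difference of 0.61 at 24 h. Its other, dimmer probe sets were all higher at 48 h but varied in size. They differed by 0.35 to 4.24 in the full-length NRSF series, 1.05 to 4.12 in the truncated NRSF series and 0.38 to 2.41 in the untreated series. PRSS35, a serine protease-like gene (chr6:83512534-83525704), gave 31.1, 38.5 and 38.1 at 0 h, 41.9, 44.0 and 16.8 at 24 h and 419, 549 and 133 at 48 h. It was near its 0 h level at 24 h in both construct series and lower in the untreated series. PRSS35 rose by 3.32 ± 0.42 (adjusted p = 0.000293).

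ADAMTS1, CEMIP and HTRA1 encode secreted proteins and also rose. ADAMTS1, a metalloprotease that cleaves matrix proteoglycans, gave 136, 79.8 and 79.1 at 0 h, 73.5, 139 and 102 at 24 h and 649, 825 and 275 at 48 h and rose by 2.38 ± 0.33 (adjusted p = 0.000575). The rise was smallest in the untreated series, 1.43 against 3.14 and 2.57, differences between single arrays that were not tested. CEMIP, which takes part in hyaluronan breakdown, gave 701, 728 and 786 at 24 h and 3097, 3467 and 1554 at 48 h and rose by 1.79 ± 0.23 (adjusted p = 0.000293). HTRA1, a secreted serine protease, gave 653, 781 and 775 at 24 h and 1579.9, 1900 and 1433 at 48 h and rose by 1.15 ± 0.14 (adjusted p = 0.000265). No 48 h array of these genes overlapped a 24 h array. The list of matrix proteases and the plasminogen system as a whole had 4 of 22 members that rose and 2 that fell, with a median of 0.24 (0.37 without the full-length NRSF series). The members that fell were PLAUR, the urokinase receptor, by 1.18 ± 0.19 (adjusted p = 0.00195), and PLAU, urokinase itself, by 0.85. PLAU and TIMP2, a protease inhibitor that rose by 0.53, were named after their values were seen. Without the full-length NRSF series the calls of ADAMTS1 and PLAUR ended (adjusted p = 0.0501 and 0.0907), and that of CEMIP ended when probe sets were averaged (adjusted p = 0.0507).

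Further late risers had more varied roles. CITED1, a transcriptional coactivator, gave 367, 317 and 133 at 24 h and 702, 694 and 456 at 48 h and rose by 1.28 ± 0.21 (adjusted p = 0.00227). AKR1C1, a ketosteroid reductase read by an uncertain probe set, lay at 259 to 284 at 24 h and at 609 to 935 at 48 h and rose by 1.40 ± 0.21 (adjusted p = 0.00122). LURAP1L and PHYHIPL rose by 1.33 ± 0.23 and 1.28 ± 0.30. NPY, a neuropeptide of sympathetic neurons, gave 139, 287 and 357 at 0 h, 271, 403 and 583 at 24 h and 750.3, 707 and 919.8 at 48 h. It was higher at each later hour in every series and rose by 0.98 ± 0.21 from 24 to 48 h (adjusted p = 0.0143). The calls of LURAP1L, PHYHIPL and NPY ended without the full-length NRSF series (adjusted p = 0.0598, 0.126 and 0.125). That of PHYHIPL also ended without either other series. NPY lost its call without the series block too (adjusted p = 0.0846), and AKR1C1 was at 0.47 when probe sets were averaged (adjusted p = 0.584).

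The promoters of 4 of these genes are printed to show what a fading and a late-rising gene carry near their start. They come from RefSeq, GRCh38.p14, run 5' to 3' on the gene's strand from 250 bases before the start to 50 after it, and 73 of 97 named genes have one. Capitals mark the exact motif matches named after each sequence, with positions counted from the start site. A match is a description, not a binding site.
EGR1 (chr5:138465229-138465528, plus strand): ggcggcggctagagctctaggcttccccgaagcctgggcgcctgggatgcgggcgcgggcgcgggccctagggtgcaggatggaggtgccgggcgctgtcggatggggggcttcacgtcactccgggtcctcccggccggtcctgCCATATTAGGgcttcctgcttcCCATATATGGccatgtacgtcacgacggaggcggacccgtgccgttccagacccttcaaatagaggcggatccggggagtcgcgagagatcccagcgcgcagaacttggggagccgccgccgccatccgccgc
CXCL8 (chr4:73740319-73740618, plus strand): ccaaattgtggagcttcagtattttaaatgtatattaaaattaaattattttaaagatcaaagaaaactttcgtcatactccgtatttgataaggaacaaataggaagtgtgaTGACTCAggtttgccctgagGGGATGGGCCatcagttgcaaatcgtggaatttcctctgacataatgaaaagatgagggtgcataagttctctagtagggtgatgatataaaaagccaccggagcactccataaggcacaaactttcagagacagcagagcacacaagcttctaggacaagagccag
DIO2 (chr14:80211455-80211754, minus strand): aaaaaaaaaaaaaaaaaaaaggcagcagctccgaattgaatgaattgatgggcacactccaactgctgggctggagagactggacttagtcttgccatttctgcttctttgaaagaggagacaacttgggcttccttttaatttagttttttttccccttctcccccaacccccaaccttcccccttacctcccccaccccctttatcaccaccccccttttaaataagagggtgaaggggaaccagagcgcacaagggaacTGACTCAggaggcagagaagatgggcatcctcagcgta
PRSS35 (chr6:83512284-83512583, plus strand): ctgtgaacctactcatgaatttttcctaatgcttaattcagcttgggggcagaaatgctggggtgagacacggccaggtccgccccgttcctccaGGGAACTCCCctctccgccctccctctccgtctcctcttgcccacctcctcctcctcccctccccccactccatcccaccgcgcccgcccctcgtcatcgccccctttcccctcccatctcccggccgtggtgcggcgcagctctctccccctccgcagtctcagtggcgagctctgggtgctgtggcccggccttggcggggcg

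In EGR1 the capitals are 2 CArG boxes, the element of serum response factor, CCATATTAGG at -105 and CCATATATGG at -83. EGR1 also holds NF-kB matches at -126 and at 26, left in lower case. Of all 27305 promoters in the table, 1.29% hold a CArG box. In CXCL8 they are an AP-1 match (TGANTCA) at -137 and an NF-kB match (its loose consensus) at -117. A site that departs from that consensus stays in lower case, so the capitals need not mark the NF-kB element of this promoter. Which stretch binds NF-kB was not tested. DIO2 has an AP-1 match at 13 bases after the start used by the table, which lies inside the span of the gene, and PRSS35 has an NF-kB match at -155. AP-1 matches occur in 7.76% and NF-kB matches in 25.1% of all promoters, with both strands searched. The AP-1 match was held by 5.88% of 153 promoters of fading genes, by 4.49% of 89 promoters of genes that rose late or went on rising, and by 4.71% of the 11152 promoters of all genes tested. The CArG box was held by 1.96%, 2.25% and 1.1% of them and the NF-kB match by 37.3%, 30.3% and 30.6%. Among called genes these shares rest on 9 and 4 promoters for AP-1, on 3 and 2 for the CArG box and on 57 and 27 for NF-kB.

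Recovering genes had been low at 24 h and came back. CRH, the corticotropin-releasing hormone gene, gave 7456, 8525 and 4074 at 0 h, 2630.2, 1491 and 2615 at 24 h and 6845, 6681 and 6707 at 48 h. The 48 h arrays differed little from one another, while the truncated NRSF array was the lowest at 24 h, and CRH rose by 1.63 ± 0.23 (adjusted p = 0.000792). HTR2B, a serotonin receptor, gave 346, 414 and 443 at 0 h, 131, 129 and 129.7 at 24 h and 479, 547 and 331 at 48 h and rose by 1.77 ± 0.21 (adjusted p = 0.000186). PRRX1, the mesenchymal homeobox factor, gave 4442, 4345 and 4971 at 0 h, 2027, 1811 and 2172 at 24 h and 5612, 4016 and 4054 at 48 h and rose by 1.17 ± 0.15 (adjusted p = 0.000252). For HTR2B and PRRX1 the 24 h arrays lay close together and below every array of the other hours.

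Some recovering genes encode transporters, pumps or enzymes of lipid mediators. ATP1B1, the beta subunit of the sodium pump, gave 2289.7, 2288 and 2254 at 0 h, 1417, 1340.5 and 1602 at 24 h and 5558, 7019.5 and 3915 at 48 h. It went beyond its 0 h level in every series, and it rose by 1.88 ± 0.17 (adjusted p = 3.81e-05). SLC5A3, which imports the osmolyte myo-inositol, gave 1515, 1297 and 1332 at 24 h and 5058, 4732 and 2961 at 48 h and rose by 1.59 ± 0.18 (adjusted p = 0.000145). ABCA1, a cholesterol exporter, gave 218, 192 and 201 at 24 h and 483, 466 and 439 at 48 h and rose by 1.18 ± 0.18 (adjusted p = 0.00145). HPGD, the enzyme that inactivates prostaglandins, read by an uncertain probe set, gave 96.5, 89.2 and 45.5 at 0 h, 45.1, 40.3 and 35.5 at 24 h and 268, 356 and 158 at 48 h. All 48 h arrays exceeded both earlier hours, and HPGD rose by 2.63 ± 0.33 (adjusted p = 0.000252). In the untreated series its other probe sets differed by 0.17, 1.57 and 0.17, against 2.16 on the one reported. In the construct series those other probe sets differed by 2.02 to 5.04. DIO2 and HPGD were the 2 called members of 11 in the list of prostaglandin and thyroid hormone metabolism. ABCA1 lost its call without the full-length NRSF series (adjusted p = 0.0606) and was at 0.61 when probe sets were averaged (adjusted p = 0.329).

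Among the remaining recovering genes, PTCHD1, a patched-domain membrane protein, rose by 1.79 ± 0.26 (adjusted p = 0.000792), with signals of 55.0 to 105 at 24 h and 227 to 259 at 48 h. SYTL4, a secretory granule protein, rose by 1.83 ± 0.29 (adjusted p = 0.0018), and LOXL2, a collagen cross-linking oxidase, rose by 0.80 ± 0.15 (adjusted p = 0.00641). ZBED10P, a pseudogene, rose by 1.99 ± 0.27, and LRRC61 rose by 1.39 ± 0.25. ARHGAP22 and C17orf67 rose by 1.74 ± 0.46 and 2.01 ± 0.50, with 24 h signals as low as 9.77 and 10.4 in the truncated NRSF series. With probe sets averaged SYTL4 was at 0.79, LOXL2 at 0.13 and ARHGAP22 at 0.23 (adjusted p = 0.425, 0.894 and 0.807). LRRC61 and LOXL2 lost their calls without the full-length NRSF series (adjusted p = 0.0841 and 0.0553), and ARHGAP22 and C17orf67 lost theirs without any 1 series. Of those 12 settings, ARHGAP22 kept its call under 2 and C17orf67 under 7.

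The 47 late falls had a median difference of -0.84. MAP3K21, a mixed lineage kinase, gave 99.0, 168 and 189 at 0 h, 153, 229 and 245 at 24 h and 56.9, 56.4 and 110.4 at 48 h and fell by 1.53 ± 0.27 (adjusted p = 0.00478). In every series the 48 h array was the lowest of the 3. GAS2L3, a cytoskeletal linker used in cell division, lay at 304 to 442 at 24 h and at 142 to 210.2 at 48 h and fell by 1.17 ± 0.19 (adjusted p = 0.00211). NRIP1, a nuclear receptor corepressor, lay at 511 to 593 at 24 h and at 262 to 281 at 48 h and fell by 1.02 ± 0.17 (adjusted p = 0.00225). C6orf141, ZNF514 and MYEF2, the last on an uncertain probe set, fell by 1.23, 1.08 and 1.03, and CARNMT1, a carnosine methyltransferase, fell, with signals of 138 to 204 at 24 h and 59.7 to 85.2 at 48 h. MAP3K21, GAS2L3 and NRIP1 lost their calls without the full-length NRSF series (-1.59, -1.20 and -1.03, adjusted p = 0.0681, 0.0581 and 0.065). The other 4 lost theirs without any 1 series. With probe sets averaged CARNMT1 was at -0.62 and MYEF2 at -0.63.

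The 3 genes that went on falling after 24 h were SOX11, DEPDC1 and SPRY4-IT1. SOX11, a transcription factor of developing sympathetic neurons, gave 1573, 1163 and 1132 at 0 h, 671, 471 and 428 at 24 h and 334, 301 and 353 at 48 h. Each hour lay below the one before in every series, and SOX11 fell by 0.64 ± 0.16 from 24 to 48 h (adjusted p = 0.0396). DEPDC1, a cell cycle gene read by an uncertain probe set, fell by 0.72 ± 0.15 (adjusted p = 0.0166), and SPRY4-IT1, a non-coding RNA from the SPRY4 locus, fell by 1.06 ± 0.25 (adjusted p = 0.026). Each lost its call without the full-length NRSF series (adjusted p = 0.318, 0.0967 and 0.148 for SOX11, DEPDC1 and SPRY4-IT1). SOX11 and SPRY4-IT1 also lost it without either other series and without the truncated NRSF 24 h array, SOX11 without the block (adjusted p = 0.0774) and DEPDC1 without the untreated series. DEPDC1 was at -0.40 when probe sets were averaged.

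Few cell cycle genes were called, but with 3.5% of all genes tested called, counts this small are not read as results about these lists. Of 36 G2/M and mitosis genes none was called, with a median of 0.04 (0.13 without the full-length NRSF series, 0.00064 without the truncated NRSF series, 0.0081 without its 24 h array and -0.025 after cyclic loess), after 23 of them had been called lower at 24 h than at 0 h (8.2% of all genes were). DLGAP5, a spindle protein, had the largest absolute difference together with AURKB, a mitotic kinase: 0.46 (adjusted p = 0.163) and -0.45 (adjusted p = 0.395). Among 34 DNA replication and S phase genes, whose median was 0.21, 1 rose and 1 fell. That median was 0.12 without the truncated NRSF series and 0.13 without its 24 h array. CDC6, which loads the replicative helicase, lay at 262 to 312 at 24 h and at 388 to 543 at 48 h and rose by 0.74 ± 0.17 (adjusted p = 0.0225), while CCNE2, cyclin E2, lay at 228 to 372 at 24 h and at 111 to 176 at 48 h and fell by 1.07 ± 0.25 (adjusted p = 0.0283). Neither call held without the full-length NRSF series (adjusted p = 0.111 and 0.304). That of CDC6 also ended without either other series, and that of CCNE2 without the untreated series. None of 12 core histone genes was called, and H2BC21 and H4C8 had differences of -0.56 and -0.52.

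Bright genes stood slightly higher at 48 h as a class, which bears on the housekeeping lists. The median difference was 0.12 in the brightest 20% of genes and -0.06 in the dimmest 20%, and 140 of the 237 genes that rose were among the brightest 20%. In the truncated NRSF series, which holds the 24 h array that stood apart, these medians were 0.19 and -0.34. Of 25 oxidative phosphorylation genes 24 had a positive difference, 22 of them in 3 of 3 series, with a median of 0.40, but only COX6A1 and NDUFB5, subunits of respiratory complexes IV and I, were called. Over all 13804 genes tested, 6986 had a positive difference, and 20.1% were higher in 3 of 3 series. COX6A1 gave 8001, 7122 and 8652 at 24 h and 11042, 10874 and 14229 at 48 h and rose by 0.60 ± 0.15 (adjusted p = 0.0424). NDUFB5 rose by 0.55 ± 0.14 (adjusted p = 0.0453). All 18 cytosolic ribosomal protein genes had a positive difference with a median of 0.33, and RPL3, on an uncertain probe set, rose by 0.71 ± 0.14 (adjusted p = 0.0125). After quantile normalization the medians of these lists were 0.31 and 0.09, after cyclic loess 0.26 and 0.09, and none of the 3 calls held (COX6A1 at 0.31 and 0.35, NDUFB5 at 0.42 and 0.40, RPL3 at 0.45 and 0.46). Without the truncated NRSF 24 h array the oxidative phosphorylation median was 0.26.

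**Figure D4:**
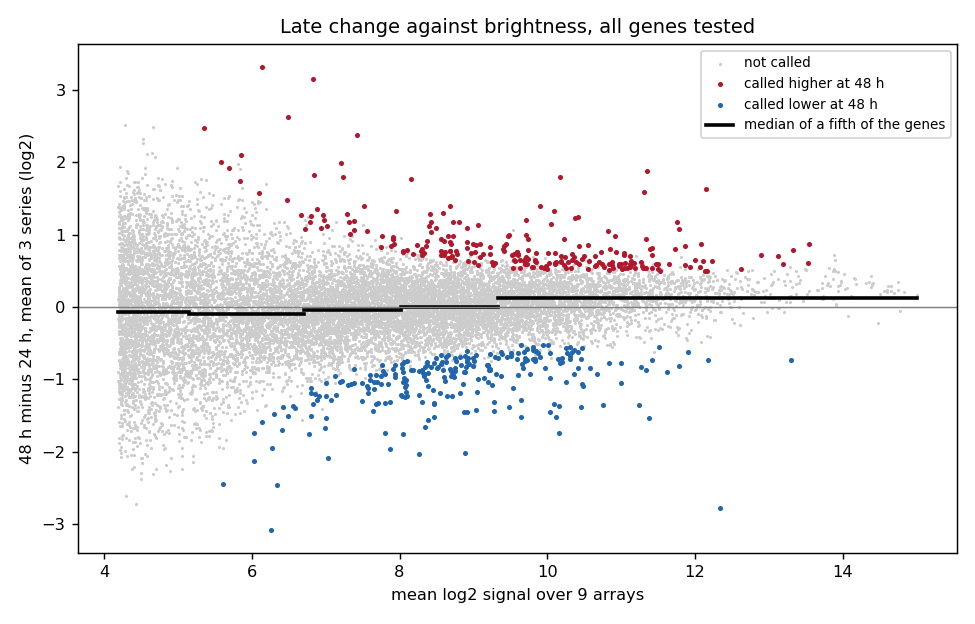
The 48 h minus 24 h difference (log2, mean of 3 series) of all 13804 genes tested against their mean log2 signal over 9 arrays, with called genes coloured and the median of each 20% of the genes as a bar. The bars are at -0.06 in the dimmest 20%, -0.09 in the next and 0.12 in the brightest, and no gene of the dimmest 20% was called.

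The heat shock list had a median of 0.36 with 1 of 16 members called: HSPH1, a cytosolic chaperone, rose by 0.58 ± 0.14 (adjusted p = 0.0291). In hypoxia and glycolysis 2 of 33 rose, with a median of 0.15: ALDOA, aldolase, on an uncertain probe set by 0.53 ± 0.14 and TPI1, triosephosphate isomerase, by 0.52 ± 0.13. Among 22 NRF2 antioxidant genes AKR1C1 and ME1, malic enzyme, rose and none fell, with a median of 0.18 and 0.57 ± 0.15 for ME1. The NRF2 median was 0.071 without the untreated series, 0.082 after quantile normalization and 0.088 after cyclic loess, and that of hypoxia and glycolysis was 0.095 and 0.088 after these scalings and 0.064 with probe sets averaged. Cholesterol and fatty acid synthesis had 1 gene that rose and 2 that fell among 23. FDPS, which makes farnesyl diphosphate, rose by 0.65 ± 0.17, HMGCS1, which makes its precursor, fell by 1.29 ± 0.26, and SQLE, squalene epoxidase, fell by 0.72 ± 0.16. None of 24 endoplasmic reticulum chaperones was called: ERO1B and CRELD2 had differences of -0.84 and -0.59 (adjusted p = 0.132 and 0.137). HSPH1, ALDOA, TPI1, ME1, FDPS, HMGCS1 and SQLE all lost their calls without any 1 series, and HSPH1, ALDOA, TPI1, ME1 and FDPS also under cyclic loess. HMGCS1 was at -0.28 when probe sets were averaged (adjusted p = 0.8).

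Of 40 tested RE1 neuronal target genes, whose promoters or introns carry the NRSF element, 3 rose and 1 fell, with a median of 0.11. The median differed between the series, at -0.12, 0.60 and 0.14 in the full-length NRSF, truncated NRSF and untreated series. It was 0.46 without the full-length NRSF series, 0.038 without the truncated NRSF series and 0.045 without the truncated NRSF 24 h array alone. CRH is described above. SCG2, secretogranin II of dense-core vesicles, lay at 461 to 625 at 24 h and at 669 to 1056 at 48 h and rose by 0.73 ± 0.16 (adjusted p = 0.0199), and NEFL, a neurofilament gene named after its value was seen, rose by 0.73. SCG5, a chaperone of prohormone convertase, gave 57.1, 93.4 and 59.6 at 0 h, 345, 350.1 and 241 at 24 h and 127, 153 and 176 at 48 h and fell by 1.03 ± 0.27 (adjusted p = 0.0431). Of 22 genes of NRSF and its corepressors, ZNF217, a zinc finger partner of the CoREST complex, fell by 0.86 ± 0.15 (adjusted p = 0.00451), and no other was called. With 3.5% of all genes tested called, 1 call is not read as a result about this list. Without the full-length NRSF series the calls of SCG2, SCG5 and ZNF217 ended (adjusted p = 0.0981, 0.29 and 0.065). Those of SCG2 and SCG5 also ended without either other series, and that of ZNF217 without the untreated series.

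In the TGF-beta and matrix list LOXL2 rose and SKIL, a SMAD corepressor, fell by 0.76 ± 0.16 (adjusted p = 0.0141) among 31 members, with a median of 0.06. The sign of that median turned after quantile normalization (-0.05), cyclic loess (-0.036), averaging of probe sets (-0.071) and without the truncated NRSF series (-0.027), and it was 0.10 without the full-length NRSF series, 0.017 without the untreated series and 0.012 without the truncated NRSF 24 h array. Of 27 mesenchymal neuroblastoma markers, PRRX1 rose and FOSL1 fell, and of 19 sympathoadrenal markers SOX11 fell. Since 3.5% of all genes tested were called, counts this small are not read as results about these lists. Among markers of other cell types, KRT18, a keratin of simple epithelia on an uncertain probe set, rose by 0.65 ± 0.15 (adjusted p = 0.026), with signals of 3325 to 4281 at 24 h and 5432 to 6076 at 48 h, with no other epithelial member called among 6. Summed signals of the blood markers were 184.5 to 297 at 24 h and 217.9 to 306.4 at 48 h, those of Schwann and melanocyte markers 178.4 to 326.9 and 163.1 to 207.1, and those of endothelial markers 131.4 to 225.6 and 171.7 to 254.9. These ranges overlapped between the hours. No member of the blood, Schwann and melanocyte or endothelial lists was called; CD74, NGFR, ERG and FLT1 had differences of 0.94, -1.62, 0.91 and -0.87 (adjusted p = 0.604, 0.152, 0.458 and 0.143) with hours that overlapped. SKIL was at -0.18 when probe sets were averaged, and KRT18 lost its call without any 1 series.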

How the data were processed

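RNA of SK-N-AS cells was measured on 9 arrays, 1 per group. The authors deposited linear signal intensities, 1 per probe set, which per the submitters' processing notes came from GCOS (version not given in the sources used here). The mean after trimming 2% at each end was 150.02 on every array, so this deposited scaling was kept. Values under the 25th percentile (signal 8.27) were set to it and log2 was taken. Of 54613 non-control probe sets, 41091 named 1 gene through GEO's annotation and RefSeq, 1801 named several and 11721 none. The brightest probe set by mean stood for each of 19775 genes, and the 13804 with a mean log2 above 4.20, the 40th percentile, were tested. Of these, 900 are on probe sets marked for cross-hybridization and are called uncertain.

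limma 3.58.1 in R 4.3.3 (with data.table, version 1.17.8) fitted time with series as a block over all 9 arrays, so that the 0 h arrays add to the estimate of spread (4 residual degrees of freedom), with a mean-variance trend, two-sided, at a Benjamini-Hochberg adjusted p under 0.05. The block follows the series in the labels, in which each 48 h array has a 24 h array of its own. Differences within 1 series have no test. On simulated data with 200 changed genes among 13804, this comparison recovered 55% of 2-fold and 81% of 4-fold changes, with 12 false calls among 148. The simulated noise was independent between genes and arrays and took its size from the fit's own variance model. These shares therefore cannot say how the real calls fare where that model is off. Intensities carry no count, so that the number of arrays limits the precision.

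The arrays compared and the gene lists were chosen with earlier results of these data known, so list counts and medians are descriptions with no test. Named genes were the 15 rises and 15 falls with the largest smallest change over the series among calls with 1 sign in 3 of 3 series, up to 8 of each time-course class by the same measure, REST, and of each list the 3 called members with the largest change (2 members where none was called). Alternatives covered normalization, floor, filter, probe set choice, variance model, block, and leaving out series or the array that stood apart.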

Additional observations from a re-analysis of the deposited data

Results flagged for a closer look

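A pair of genes changed in opposite directions in different series, and the difference between series was not tested, since each series holds 1 array per hour. LCP1, an actin-bundling protein of blood cells, differed from 24 to 48 h by 2.18 in the full-length NRSF series, 2.79 in the truncated NRSF series and -1.58 in the untreated series (log2). TYR, the melanocyte enzyme tyrosinase, differed by -2.80 in the full-length NRSF series, 2.25 in the truncated NRSF series and -1.78 in the untreated series. Both genes are dim, with signals between 2.22 and 71.2 on these 9 arrays, and each had a 24 or 48 h array under the floor of 8.27.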

How the results depend on the processing

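Of the 84 named genes with a call, 28 kept it under the 12 settings laid down with the design other than no filter and no variance trend. None changed sign under the alternatives run, but most of these could not turn a sign. The filter, variance model and block settings leave the difference itself as it was. Each of these genes changed in the same direction in every series, so leaving out a series could not turn its mean. The sign was free to turn mainly under other normalization, with probe sets averaged or without the array that stood apart. Among named genes without a call, REST ran from -0.37 (without the truncated NRSF series) to 0.054 (without the untreated series) and TYR from -2.29 (without the truncated NRSF series) to 0.23 (without the full-length NRSF series).

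The counts moved more. With no filter on dim genes, no variance trend, or all 54613 non-control probe sets tested, limma called 0 genes higher and 0 lower (0 in every time-course class), with smallest adjusted p values of 0.0502, 0.119 and 0.116 and 2743, 1990 and 6046 features at an unadjusted p under 0.05. With a filter at the 10th percentile, chosen after seeing the data, 239 rose and 254 fell. With no trend and a filter at the 60th percentile, also chosen later, 31 rose and 65 fell (96 in all), with 1 continued rise, 7 late rises, 23 recoveries, 56 fading genes, 9 late falls and 0 continued falls. With every probe set above the filter tested on its own, chosen later too, 427 of 770 called fell. With all probe sets of a gene averaged, 78 rose and 97 fell (175 in all), with 0 continued rises, 34 late rises, 44 recoveries, 85 fading genes, 11 late falls and 1 continued fall. Without the truncated NRSF 24 h array, 80 rose and 121 fell (201 in all), with 1 continued rise, 28 late rises, 51 recoveries, 103 fading genes, 18 late falls and 0 continued falls. Leaving out 1 series in turn gave 39 to 81 genes higher, 49 to 131 lower and 88 to 197 in all, with 1 to 3 continued rises, 13 to 22 late rises, 25 to 59 recoveries, 49 to 107 fading genes, 0 to 24 late falls and 0 continued falls. Late rises numbered 58 after quantile normalization, 59 after cyclic loess and 66 with no replicate block (1 continued rise), which called 392 genes in all. The filter at the 60th percentile gave 5 continued falls.

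Counts of 2-fold differences in single series followed the treatment of dim genes. In the full-length NRSF series 603 were higher and 772 lower with the floor at the 40th percentile, 2029 and 2344 with no filter, and 285 and 443 with the filter at the 60th percentile. In the truncated NRSF series 759, 2054 and 505 were higher under these settings, and 3080 (no filter) and 572 (60th percentile) lower. In the untreated series 648, 2254 and 289 were higher and 651, 1972 and 415 lower. The share of calls with the same sign in the series left out was 96.92% with the floor at the 40th percentile and 100% with probe sets averaged, against 95.35%. The causes of these shifts were not tested, other than that a filter changes how many genes are tested. Dim genes limit what can be seen: no gene of the dimmest 20% was called, and a gene near the floor has no measurable fall.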
